A study of Homo sapiens with 30 samples.

Results

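The small nucleolar RNA genes described here were the rows of the 2 deposited RNA count tables whose symbol begins with SNORD, SNORA or SCARNA and that had 50 or more counts in every library. Only 2 of 438 such rows met that minimum, SNORD141A and SNORD104, among 27348 genes held by both tables. Both are box C/D genes by symbol; none of the 145 SNORA rows and none of the 25 SCARNA rows met it. The members were thus chosen by their raw counts, so the level of these 2 genes is given as a description, and only their differences between groups were tested.

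The cells were RUES2, an established human embryonic stem cell line, kept in TeSR E7 medium with a ROCK inhibitor. CPI-203 is an inhibitor of BET bromodomain proteins, which bind acetylated histones and support transcription elongation. RNA was sequenced from 16 libraries in 8 groups of 2, and the labels do not say whether the 2 replicates of a group came from different cultures. The p-values therefore cover the spread among these libraries, which may be technical. The first 4 groups were collected at 24 h, after day 1. WNT_CPI had Wnt3a at 100 ng/mL with CPI-203 at 1 µM, WNT had Wnt3a alone, E7_CPI had CPI-203 at 1 µM without Wnt3a, and E7 had medium alone. The other groups were collected at 48 h, after day 2. WNT_CPI_ACT had Wnt3a and CPI-203, followed on day 2 by 10 ng/mL Activin A, WNT_ACT had Wnt3a and then Activin A, WNT_E7 had Wnt3a and then medium, and E7_ACT had medium and then Activin A. All groups are a single cell line, and total RNA was extracted in Trizol with no stated step that enriches small RNAs.

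Small nucleolar RNAs are short noncoding RNAs that guide proteins to the bases of other RNAs that are to be modified. Box C/D RNAs, named SNORD, direct ribose methylation with the methyltransferase fibrillarin. Box H/ACA RNAs, named SNORA, direct pseudouridylation with dyskerin, and small Cajal body RNAs, named SCARNA, serve the spliceosomal RNAs. Most human members lie in introns of other genes and are cut out of the spliced intron, so they have no promoter of their own. The U3 genes, named SNORD3, are an exception, since each has its own promoter, and U3 acts in cleavage of the ribosomal RNA precursor and not in its methylation.

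Library totals ran from 36268324 to 43347733 counts. The deposited E7_CPI replicate 1 column was out of step with the gene names beside it, with an absolute Spearman correlation of at most 0.00712 with any other library. Read in the row order of the other table it correlated at 0.954 to 0.986, and most with E7_CPI replicate 2. The chi-square statistic between the E7_CPI libraries was 3.25 per degree of freedom, more than sampling noise gives, against 96.9 to 164 between the 2 libraries of each other group. Deviations from group means in E7_CPI correlated with those of the other groups at -0.076 to -0.034, so this library did not follow its replicate number, and the reason was not tested. Its values are therefore shown beside the others but were left out of the fits, which rest on 15 libraries and treat the remaining E7_CPI library (replicate 2) as varying like the other groups. The stem cell markers POU5F1, SOX2, LIN28A, DNMT3B and TDGF1 were used to check the label. By RefSeq symbol 4 of these 5 were found, all above 0, with a summed level of 3358 to 6967 counts per 1000000 (CPM). A marker listed there under another name would be missed. Of 5 fibroblast markers, 1 or 2 were at 0 in each group and the summed level was 128 to 372 CPM.

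SNORD141A was the most counted gene of the whole table in every one of the 16 libraries. It held 325756 to 418333 counts, which is 0.805% to 1.06% of a library. It also made up 98.6% to 99.7% of all counts on the 438 small nucleolar rows, and all the other rows together had 1020 to 5007 counts. SNORD104 had 70 to 419 counts and ranked between 9453 and 12853 in its libraries. Per kb of gene length the mean level was 86400 CPM for SNORD141A (105 bases) and 49.7 CPM for SNORD104 (80 bases).

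Just inside the minimum SNORD104 had a lowest count of 70, and just outside it SNORD63B had a lowest count of 46. SNORD17, SNORA26 and SNORA33 followed with a lowest count of 39 each, SNORD68 with 38 and SNORD3A, a U3 gene, with 31. A minimum of 10 in every library would have kept 20 rows, 12 of them SNORD and 8 SNORA. No count at all was seen in any library for 253 rows, 191 SNORD, 61 SNORA and 1 SCARNA. The 6 rows that the RefSeq table places on chromosome 22 were among these. Of the 626 genes of any kind placed there, 625 had no count in the 15 fitted libraries, and whether genes there could be counted at all was not tested.

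**Figure D1:**
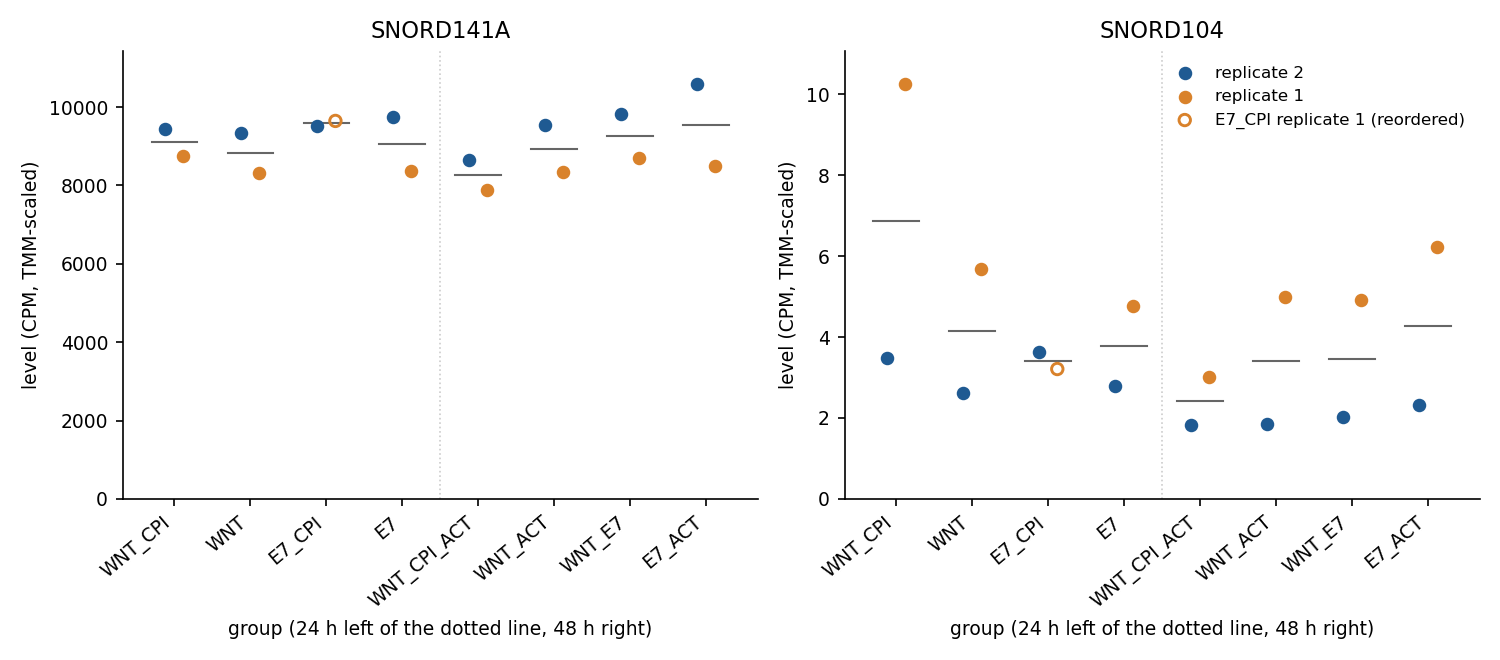
Level of SNORD141A (left) and SNORD104 (right) in each library, in TMM-scaled CPM, by group. Points are libraries, coloured by replicate number, and bars are group means; SNORD141A stays between 7874 and 10591 CPM, while SNORD104 runs from 1.84 to 10.3 CPM with replicate 2 below replicate 1 in 7 of 8 groups.

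The level of SNORD141A changed little across the treatments, as the plot of levels by group shows. All values here are TMM-scaled CPM, with replicate 2 before replicate 1. At 24 h SNORD141A stood at 9432 and 8761 CPM in WNT_CPI, against 9350 and 8307 CPM in WNT. It stood at 9518 and 9646 CPM in E7_CPI, against 9743 and 8381 CPM in E7. The libraries with and without CPI-203 overlapped in both comparisons. At 48 h the values were 8651 and 7874 CPM in WNT_CPI_ACT and 9531 and 8346 CPM in WNT_ACT. WNT_E7 had 9825 and 8713 CPM and E7_ACT had 10591 and 8485 CPM. In 7 of the 8 groups replicate 2 was the higher library, and E7_CPI was the exception.

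Ordered by group mean, SNORD141A was highest in E7_CPI at 9582 CPM and E7_ACT at 9538 ± 1489 CPM (SD, n = 2), followed by WNT_E7, WNT_CPI, E7, WNT_ACT and WNT. It was lowest in WNT_CPI_ACT at 8262 ± 549 CPM (SD, n = 2). No neighbours in this order differed by more than the larger of their SDs. The place of E7_CPI compares unlike libraries, since both of its libraries lay with replicate 2, the higher one in the other groups, and whether they are separate samples was not tested, so no SD is given. Among the replicate 2 libraries alone E7_CPI, at 9518 CPM, lay below E7_ACT, WNT_E7, E7 and WNT_ACT. Over all 16 libraries the coefficient of variation was 8.07%.

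None of the 8 comparisons of the design called SNORD141A. The test was edgeR's quasi-likelihood F-test (2-sided) with Benjamini-Hochberg adjustment over 17793 genes, and calls were made below an adjusted p of 0.05. For CPI-203 with Wnt3a (WNT_CPI over WNT) its log2 fold change was 0.04 (SE 0.16, 95% interval -0.32 to 0.41). For CPI-203 alone (E7_CPI over E7) it was 0.07 (SE 0.20, -0.37 to 0.52). With the replicate number as a term the intervals were narrower, at -0.093 to 0.18 for WNT_CPI over WNT and -0.19 to 0.15 for E7_CPI over E7, where 1 library was fitted, and both spanned 0. The other values were -0.04 (SE 0.16) for WNT over E7, -0.09 (SE 0.16) for WNT_ACT over E7_ACT, -0.05 (SE 0.16) for WNT_ACT over WNT_E7 and -0.11 (SE 0.16) for WNT_CPI_ACT over WNT_ACT. The difference of the CPI-203 effects was -0.03 (SE 0.26) for with minus without Wnt3a and -0.15 (SE 0.23) for 48 h minus 24 h.

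**Figure D2:**
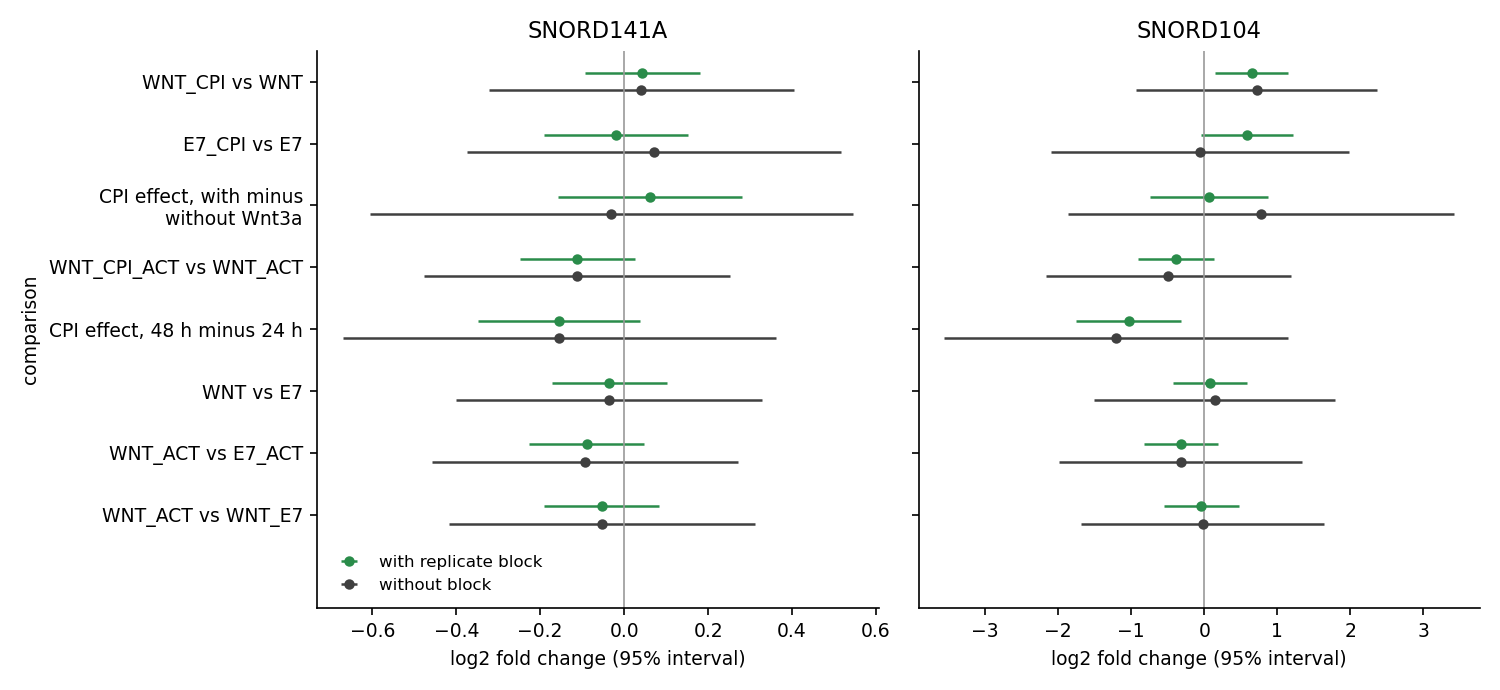
Log2 fold changes of SNORD141A (left) and SNORD104 (right) in the 8 comparisons, with 95% intervals, from the fit with the replicate number as a term (green) and from the fit without it (grey). The horizontal scales differ; every SNORD141A interval spans 0, and SNORD104 leaves 0 only in the fit with the replicate term, for WNT_CPI over WNT and for the CPI-203 effect at 48 h minus 24 h.

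The row called SNORD141A shares its locus with a gene copy. In the RefSeq table (GRCh38.p14, used for names and neighbours only) it lies inside EEF1A1P5, a 1747-base pseudogene of EEF1A1, which encodes the translation elongation factor that brings aminoacyl-tRNA to the ribosome. EEF1A1P5 has no row of its own in the tables. Reads of EEF1A1 and its copies could be assigned to this row depending on how the counting treated multiple matches, which the sources used here do not give, so the count of SNORD141A is uncertain as a measure of the small RNA.

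The ratio of SNORD141A to EEF1A1 counts was nearly constant within each replicate table. Over the 7 groups other than E7_CPI it was 4.63 to 5.001 (median 4.73) in replicate 2 and 6.08 to 6.61 (median 6.23) in replicate 1. The replicate ranges did not overlap. In E7_CPI the ratio was 4.68 in replicate 2 and 4.72 in replicate 1, so the reordered library sat in the replicate 2 range. EEF1A1 itself had 52013 to 89983 counts. Among 11281 genes with a mean level of at least 5 CPM, the genes most like SNORD141A by Pearson correlation of log2 CPM over the 15 fitted libraries were GSR at 0.951, LYRM4 at 0.937, RPUSD3 at 0.932, RPL10A at 0.932 and EEF1A1 at 0.931. GSR encodes glutathione reductase and RPL10A a ribosomal protein. With EEF1A1 the correlation was 0.925 over the 8 fitted replicate 2 libraries and 0.919 over the 7 of replicate 1. The points share libraries, treatments and scaling factors, so these values describe likeness only. Against ACTB, which encodes beta-actin, the SNORD141A ratio had a wider range for its size, with 1.38 to 1.86 in replicate 2 and 1.86 to 2.29 in replicate 1 over the same 7 groups.

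**Figure D3:**
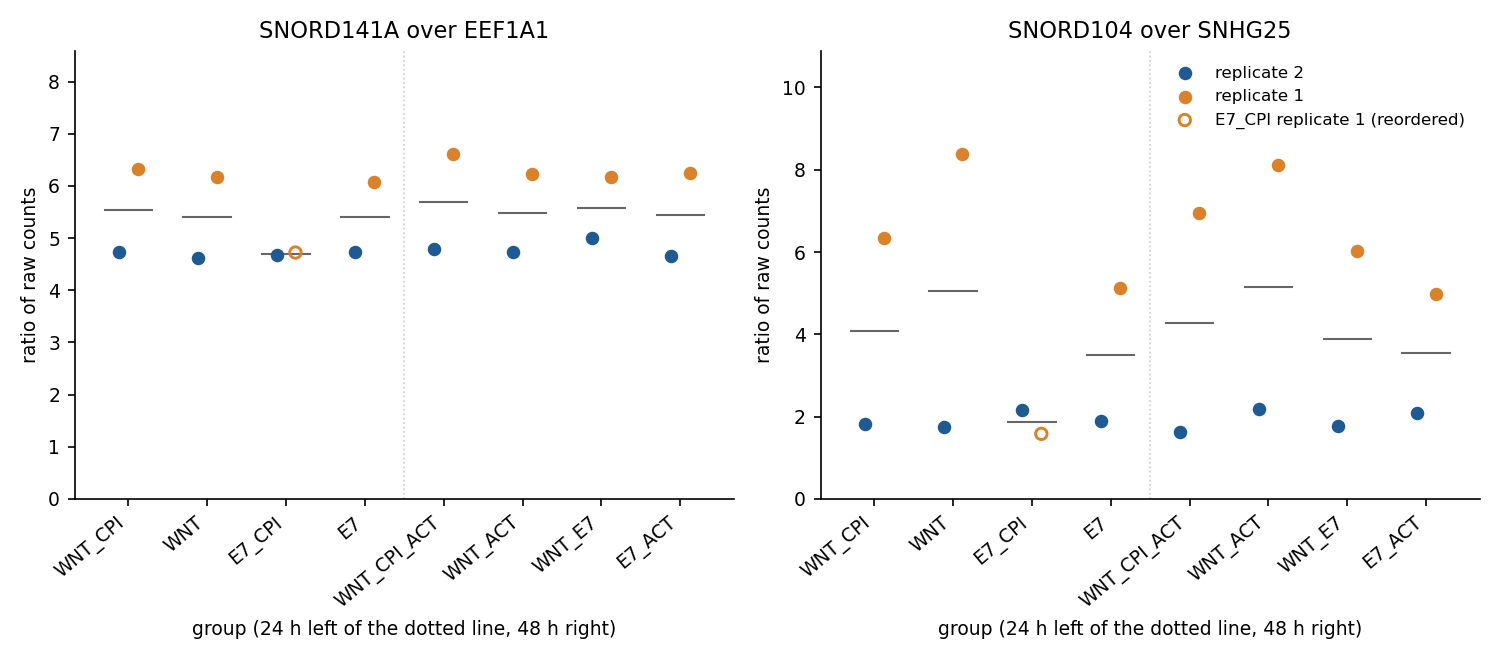
Ratio of raw counts of SNORD141A to EEF1A1 (left) and of SNORD104 to its host SNHG25 (right) in each library, by group, with group means as bars. Replicate 2 lies at 4.63 to 5.001 and 1.62 to 2.19, below replicate 1 at 6.08 to 6.61 and 4.98 to 8.38, and the reordered E7_CPI library (open) sits with replicate 2.

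SNORD104, a box C/D guide of the large ribosomal subunit RNA, varied by group and by replicate. In WNT_CPI it had 143 counts in replicate 2 and 419 in replicate 1, against 94 and 243 in WNT. In E7_CPI it had 130 and 117 counts, against 117 and 200 in E7. WNT_CPI exceeded WNT within each replicate number, while the replicates of WNT_CPI lay further apart than the means of WNT_CPI and WNT. At 48 h it had 76 and 132 counts in WNT_CPI_ACT and 70 and 195 in WNT_ACT. WNT_E7 had 81 and 199 counts and E7_ACT had 92 and 259. The replicate 2 library was the lower one in every group but E7_CPI.

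By group mean SNORD104 was highest in WNT_CPI at 6.87 ± 4.79 CPM, followed by E7_ACT at 4.28 ± 2.76 CPM and WNT at 4.16 ± 2.17 CPM (SD, n = 2 each). E7, WNT_E7, WNT_ACT and E7_CPI lay between 3.42 and 3.78 CPM, and WNT_CPI_ACT was lowest at 2.43 ± 0.84 CPM. Neighbours in this order differed by less than the larger of their SDs, apart from E7_CPI and WNT_CPI_ACT. Here too the mean of E7_CPI compares unlike libraries. Among the replicate 2 libraries alone E7_CPI was highest at 3.62 CPM, followed by WNT_CPI at 3.48 CPM and E7 at 2.79 CPM, and WNT_ACT and WNT_CPI_ACT were lowest at 1.84 CPM each. The coefficient of variation over the 16 libraries was 54.6%.

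Without a replicate term no comparison called SNORD104. Of the 2 small nucleolar genes that met the minimum, 0 were called in WNT_CPI over WNT, where 26.5% of all genes tested were, and 0 in E7_CPI over E7, where 17.5% were. The counts were also 0 in WNT over E7 (0.427% of all genes), in WNT_ACT over E7_ACT (2.13%), in WNT_ACT over WNT_E7 (0.124%) and in WNT_CPI_ACT over WNT_ACT (3.64%). They were 0 in the difference of CPI-203 effects with minus without Wnt3a (0.00562%) and at 48 h minus 24 h (10.1%). At an unadjusted p under 0.05 edgeR counted 0 of the 2 in each of these, and DESeq2's Wald test also called 0.

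The replicate number paired the samples, and with it as a term in the model SNORD104 was called in 2 comparisons. In WNT_CPI over WNT its log2 fold change was 0.65 (SE 0.22, adjusted p = 0.0312, edgeR), with 52.9% of all genes called in that fit. Without the term it was 0.72 (SE 0.74, adjusted p = 0.534). For CPI-203 at 48 h minus 24 h it was -1.03 (SE 0.33, adjusted p = 0.0316, edgeR), with 33.3% of all genes called, against -1.21 (SE 1.05, adjusted p = 0.576) without the term. The change in WNT_CPI_ACT over WNT_ACT was -0.39 (SE 0.24, adjusted p = 0.28, edgeR) with the term. For E7_CPI over E7 the direction depended on the term, at 0.59 (SE 0.28, adjusted p = 0.118, edgeR) with it and -0.06 (SE 0.91) without it. The direction of the pooled estimate depended on 1 library: without WNT_CPI replicate 1 the value for WNT_CPI over WNT was -0.26. That fit sets WNT_CPI replicate 2 alone against both WNT replicates, as the pooled E7_CPI over E7 value does for E7_CPI. SNORD104 was lower in replicate 2 (-1.19, SE 0.12), so both values also hold the replicate difference.

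SNORD104 lies within SNHG25, a long noncoding host gene of 340 bases, 182 bases from SNORA50C and next to the protein-coding gene TEX2. SNORA50C had 0 counts in all 16 libraries, which allows up to 3 counts a library. SNHG25 itself was thinly counted, at 19 to 79. The ratio of SNORD104 to SNHG25 was 1.62 to 2.19 (median 1.81) in replicate 2 and 4.98 to 8.38 (median 6.35) in replicate 1, over the 7 groups other than E7_CPI. The ranges did not overlap. In E7_CPI it was 2.17 in replicate 2 and 1.58 in replicate 1. SNORD104 and SNHG25 correlated at 0.912 over the 8 replicate 2 libraries and at 0.888 over the 7 replicate 1 libraries, but at 0.00475 over all 15. SNHG25 was higher by 0.69 (SE 0.50, adjusted p = 0.355) in WNT_CPI over WNT, which did not pass the test. Because the gene and its host overlap and strand was not stated, some reads cannot be assigned to one of them with certainty.

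The genes most like SNORD104 across the 15 libraries, looked up after its values were seen, were ZNF26 at 0.969, RABGGTB at 0.961, GAS5 at 0.958, SNHG1 at 0.956 and PKD1P4-NPIPA8 at 0.948. GAS5 and SNHG1 are noncoding host genes of several small nucleolar RNAs, and RABGGTB encodes a subunit of a Rab prenylating enzyme and hosts box C/D RNAs. These correlations run over both replicates, between which SNORD104 differed, and were not computed within each replicate for these genes. For its host SNHG25 the value over all 15 was 0.00475, against 0.912 within replicate 2 and 0.888 within replicate 1. Such values describe likeness only.

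Both genes differed between the replicates, in opposite directions. In the model with group and replicate number, SNORD141A was higher in replicate 2 by 0.19 (SE 0.03, adjusted p = 0.000568, edgeR). SNORD104 was lower in replicate 2, with a log2 fold change of -1.19 (SE 0.12, adjusted p = 1.48e-05, edgeR). These are 2 of 2 called, where 56.8% of all genes were, 29.0% higher and 27.8% lower. What the replicate numbers stand for (a culture, a library preparation or a run) is not given, and its part in these values was not tested.

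The remaining rows of the family were much less counted, and 83 of 438 (40 SNORD, 36 SNORA and 7 SCARNA) passed the filter on low counts. A row could pass through a single group where it was high, so counts over these 83 describe the rows that passed and not the family. The genes named from here on were chosen after their values were seen. Without the replicate term 6 of the 83 rose in WNT_CPI over WNT and 0 fell (7.23%), where 10.9% of all genes rose and 15.6% fell. In E7_CPI over E7 5 rose and 0 fell (6.02%), where 8.24% of all genes rose and 9.3% fell. For CPI-203 at 48 h minus 24 h 0 were higher and 2 lower (2.41%), where 6.16% of all genes were higher and 3.93% lower. Each share in both directions together was below that of all genes.

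The U3 genes made up 3 of the 6 calls in WNT_CPI over WNT, 4 of the 5 in E7_CPI over E7 and both at 48 h minus 24 h. The 4 in E7_CPI over E7 include SNORD3C, which passed the filter only through the groups where it was high, so nothing is read from its call. The summed count of SNORD3A, SNORD3B-1, SNORD3C and SNORD3D was 551 and 557 in WNT_CPI, against 91 and 54 in WNT (replicate 2 first). It was 458 and 454 in E7_CPI, against 78 and 46 in E7. The 4 libraries with CPI-203 at 24 h held 454 to 557 counts, and the other 12 held 46 to 109. At 48 h WNT_CPI_ACT had 76 and 104 counts and WNT_ACT had 86 and 109. The groups overlapped there, so the U3 difference of day 1 was not seen after day 2. These genes are near-identical copies, so the split of reads among them is uncertain and the sum is the firmer measure.

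SNORD3A, the most counted U3 row, had 338 and 377 counts in WNT_CPI, against 58 and 37 in WNT, a log2 fold change of 2.81 (SE 0.40, adjusted p = 0.000882, edgeR). In E7_CPI it had 268 and 263 counts, against 48 and 36 in E7, a change of 2.90 (SE 0.44, adjusted p = 0.0027, edgeR) with the fitted library alone. Both CPI-203 groups lay well above both groups without it. SNORD3B-1 rose by 3.17 (SE 0.46) in WNT_CPI over WNT and by 3.38 (SE 0.51) in E7_CPI over E7. SNORD3D rose by 2.52 (SE 0.72) and by 3.46 (SE 0.86) in the same comparisons. In WNT and E7 SNORD3A held most of the U3 sum of 46 to 91 counts a library. SNORD3B-1 and SNORD3D thus had few counts there, and their fold changes start from that low level. SNORD3A and SNORD3B-1 were called with each library left out, with an adjusted p of at most 0.024 for SNORD3A and 0.0133 for SNORD3B-1. The SNORD3D call in WNT_CPI over WNT was lost without WNT_CPI replicate 1, WNT_CPI replicate 2 or WNT replicate 1 (adjusted p up to 0.156, edgeR), and that in E7_CPI over E7 without E7 replicate 1 (0.108). SNORD3C had 11 and 8 counts in WNT_CPI, against 2 in each WNT library, a difference of 2.11 that was not called (adjusted p = 0.0892, edgeR). It had 7 and 11 counts in E7_CPI, against 0 in both E7 libraries, which allows up to 3 counts each. It is one of the 5 rows called in E7_CPI over E7, but it passed the filter only through the groups where it was high, so nothing is read from that call.

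**Figure D4:**
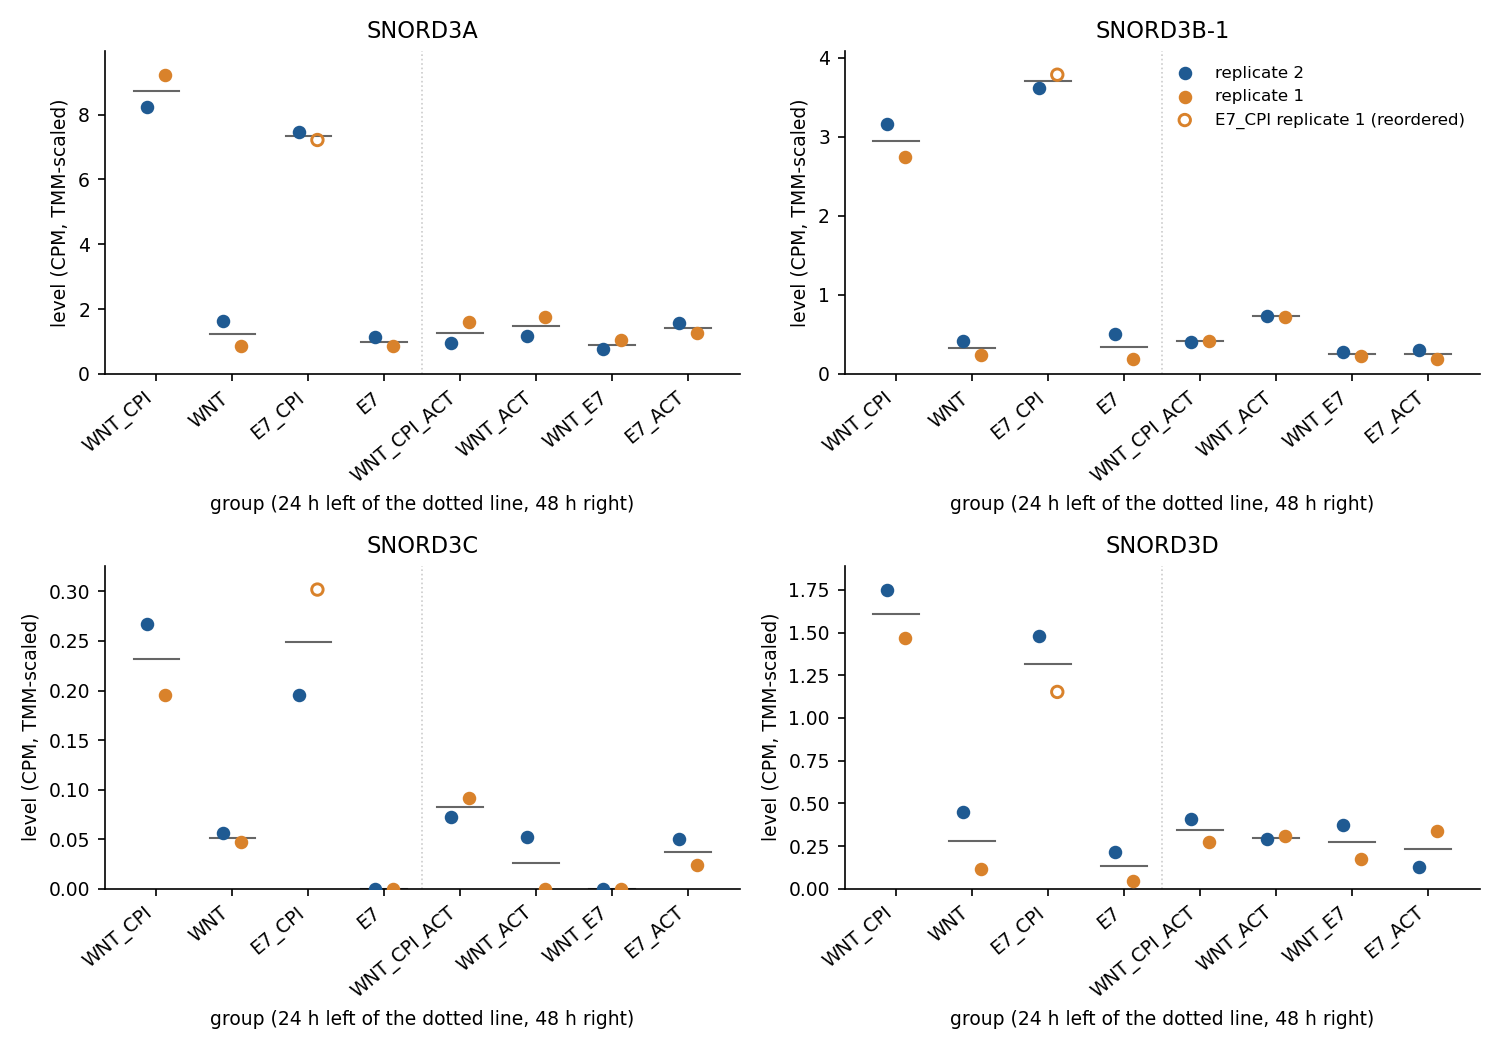
Level of the 4 tested U3 genes in each library, in TMM-scaled CPM, by group, with group means as bars; the vertical scales differ. In each panel the libraries with CPI-203 at 24 h (WNT_CPI and E7_CPI) are highest, and SNORD3A averages 8.73 CPM in WNT_CPI and 1.24 CPM in WNT.

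The effect of CPI-203 differed between the days for 2 of the 4 U3 rows. As a difference of log2 fold changes (48 h minus 24 h), SNORD3B-1 was at -3.99 (SE 0.64, adjusted p = 0.00527, edgeR) and SNORD3A at -3.02 (SE 0.54, adjusted p = 0.00883, edgeR). SNORD3D, at -2.33 (SE 1.03, adjusted p = 0.205, edgeR), and SNORD3C were not called. WNT_CPI_ACT against WNT_ACT, on its own, gave -0.21 (SE 0.38) for SNORD3A and -0.82 (SE 0.45) for SNORD3B-1, and neither passed. CPI-203 had been given on day 1 and the 48 h groups also had Activin A, so time, removal and Activin A cannot be told apart. The summed stem cell markers moved as well, at 3358 to 3712 CPM in WNT_CPI and 5017 to 6426 CPM in WNT, and at 3856 to 3962 CPM in E7_CPI and 5037 to 6427 CPM in E7. Their part in the U3 result was not tested, and in bulk RNA fewer cells of a type and less RNA per cell cannot be told apart.

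Outside U3, 3 rows rose in WNT_CPI over WNT. SNORD99 had 76 and 118 counts in WNT_CPI, against 21 and 35 in WNT, and rose by 1.74 (SE 0.47, adjusted p = 0.0216, edgeR). Its host SNHG12, a long noncoding RNA, rose by 1.34 (SE 0.26, adjusted p = 0.00487, edgeR). SCARNA13 had 32 and 39 counts, against 9 and 16, and rose by 1.45 (SE 0.37, adjusted p = 0.0166, edgeR), while its host SNHG10 was at 0.08 (SE 0.21). SNORD60 had 61 and 59 counts, against 22 and 35, and rose by 1.02 (SE 0.33, adjusted p = 0.0443, edgeR), with its host SNHG19 at 0.36 (SE 0.34). The 2 groups did not overlap for any of the 3. SCARNA13 also rose in E7_CPI over E7, by 1.57 (SE 0.43, adjusted p = 0.0321, edgeR). With each library left out in turn the fold changes in WNT_CPI over WNT ran from 1.39 to 2.04 for SNORD99, 1.21 to 1.77 for SCARNA13 and 0.84 to 1.24 for SNORD60, but the calls did not hold throughout. These fits had no replicate term. Leaving out a library of WNT_CPI or WNT set 1 replicate against both of the other group, so those values also hold any replicate difference. In WNT_CPI over WNT SNORD99 was lost without WNT_CPI replicate 1 or either WNT library (adjusted p up to 0.13, edgeR), and SCARNA13 without WNT_CPI replicate 1 or WNT replicate 2 (up to 0.119). SNORD60 was lost without any library of WNT_CPI or WNT (up to 0.216) and also without any 1 of the WNT_CPI_ACT, WNT_ACT or WNT_E7 libraries. SCARNA13 in E7_CPI over E7 was lost without either E7 library (up to 0.14), WNT_CPI replicate 2 or E7_ACT replicate 2.

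With the replicate term more rows were called. In WNT_CPI over WNT 18 rose and 1 fell (22.9%), where 24.9% of all genes rose and 28.0% fell. Among the 18 were all 4 U3 rows, SNORA33, which lies in the ribosomal protein gene RPS12, at 0.86 (SE 0.27) and SNORA73B, which lies in SNHG3, at 1.14 (SE 0.27). Of the U3 rows SNORD3C passed the filter only through the groups where it was high, so nothing is read from its call. SNORD116-5, one of the imprinted repeat copies in SNHG14, was the 1 that fell, at -2.74 (SE 0.95). In E7_CPI over E7 10 of 83 rose and 0 fell, where 21.8% of all genes rose and 22.2% fell (44.0% together). At 48 h minus 24 h 0 were higher and 7 lower (8.43%), where 17.9% of all genes were higher and 15.4% lower. SNORD3B-1 alone was called in WNT_ACT over E7_ACT (1.56, SE 0.38, adjusted p = 0.0235, edgeR), where 6.49% of all genes rose, and in WNT_ACT over WNT_E7 (1.55, SE 0.38, adjusted p = 0.0365, edgeR), where 4.0% rose. The median log2 fold change of the 83 rows was 0.40 in WNT_CPI over WNT without the term and 0.42 with it, beside medians of all genes of -0.01 in each fit. In E7_CPI over E7 it was -0.25 without the term and 0.45 with it, so its sign depended on the term. Without the term the fitted E7_CPI library, of replicate 2, was set against both E7 replicates. The 83 rows were lower in replicate 2 (median -0.96), so that value also holds the replicate difference.

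The replicate difference of SNORD104 was shared by many of the small nucleolar rows that passed the filter. A row could pass through a single library where it was high, of either replicate, so the split below describes these rows and not the family. Under the stricter filter 22 rows were called, and 9408 of 14887 genes of any kind. Of the 83 tested, 47 were lower in replicate 2 and 5 higher (62.7%, against 56.8% of all genes), with a median log2 fold change of -0.96, beside 0.01 over all genes. By class, 25 of 40 SNORD, 17 of 36 SNORA and 5 of 7 SCARNA rows were lower. The largest falls were -2.99 (SE 0.42) for SNORD72 and -2.60 (SE 0.21) for SNORD15B, and SNORD63B was at -2.03 (SE 0.16). SNORA10B and SNORA40B were higher in replicate 2, by 2.70 each (SE 0.40 and 0.29). None of the 4 U3 rows was called, with values of -0.05 to 0.50.

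**Figure D5:**
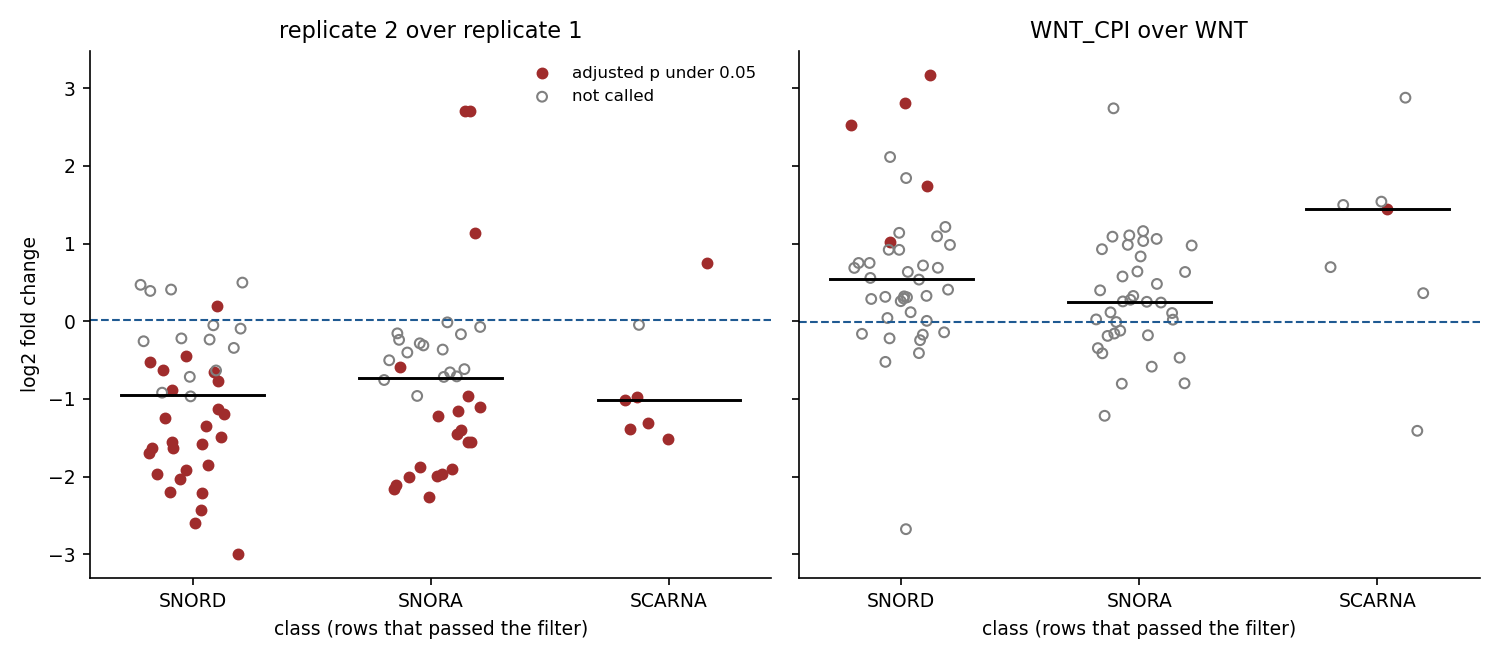
Log2 fold change of the 83 small nucleolar rows that passed the filter, by class, for replicate 2 over replicate 1 (left, from the model with group and replicate) and WNT_CPI over WNT (right, without the replicate term). Filled points passed an adjusted p of 0.05, black bars are class medians and the dashed line is the median of all genes; 47 rows lie lower in replicate 2, and the 6 called on the right are all higher in WNT_CPI.

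The fall in replicate 2 was not shared by the genes that hold these rows taken as a group. Of the tested rows 74 had a tested host, 64 hosts in all. Their median was -1.06 in replicate 2 over replicate 1, against -0.03 for the hosts, and 39 of 74 pairs had the same sign. Of the hosts 26 were called higher in replicate 2 and 23 lower. In WNT_CPI over WNT the medians were 0.38 for the rows and 0.12 for the hosts, 47 pairs had the same sign, and the correlation across pairs was 0.427 (Pearson) and 0.319 (Spearman). In E7_CPI over E7 without the replicate term the medians were -0.32 for the rows and 0.15 for the hosts. There 42 pairs had the same sign, and the Pearson correlation was 0.177. The fitted E7_CPI library was replicate 2 alone, set against both E7 replicates. These rows were lower in replicate 2 (median -1.06), so CPI-203 and replicate cannot be told apart in these medians. Pairs that share a host are not independent. Rows and hosts could each pass the filter through a single library where they were high, so these medians describe only the pairs that passed.

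Of the proteins that build, carry or process these particles 28 were tested. Without the replicate term 6 of them were called in WNT_CPI over WNT (21.4%, against 26.5% of all genes) and 2 in E7_CPI over E7 (7.14%, against 17.5%). With it these were 14 of 28 (against 52.9% of all genes) and 13 of 28 (46.4%, against 44.0%), shares near those of all genes. The calls of single genes that follow are without the term unless stated. Among the C/D core proteins 3 of 4 were tested (FBL, NOP56 and NOP58) and 0 were called in any of the 8 comparisons. Among the 4 H/ACA core proteins GAR1, which binds dyskerin, was lower with CPI-203 in both comparisons at 24 h. It had 982 and 1043 counts in WNT_CPI, against 1658 and 2070 in WNT, a log2 fold change of -0.94 (SE 0.20, adjusted p = 0.00725, edgeR). It had 814 and 832 counts in E7_CPI, against 1814 and 1942 in E7, a change of -0.98 (SE 0.25, adjusted p = 0.0269, edgeR). The groups did not overlap. The GAR1 call was lost without WNT_CPI replicate 2 (adjusted p = 0.0545, edgeR), and in E7_CPI over E7 without E7 replicate 1 (0.0898) or E7 replicate 2 (0.0594). Of 10 assembly factors SHQ1, a chaperone of dyskerin, was the 1 called, at 0.42 (SE 0.13) in WNT_CPI over WNT and 0.54 (SE 0.16) in E7_CPI over E7. Of 5 Cajal body and transport genes, COIL, which encodes coilin, fell by 0.69 (SE 0.17) and NOLC1 rose by 0.42 (SE 0.12) in WNT_CPI over WNT, and 0 were called in E7_CPI over E7. Of 6 processing and turnover genes, EXOSC10, a nuclear exosome nuclease, fell by 0.34 (SE 0.10) and XRN2, a nuclear exonuclease, rose by 0.39 (SE 0.13) in WNT_CPI over WNT, and again 0 were called in E7_CPI over E7. Each of the calls of SHQ1, COIL, NOLC1, EXOSC10 and XRN2 was lost without at least 1 library of either compared group, with adjusted p (edgeR) up to 0.217 without WNT replicate 1 for SHQ1, 0.0978 without WNT_CPI replicate 2 for COIL, 0.138 without WNT_CPI replicate 2 for NOLC1, 0.175 without WNT replicate 2 for EXOSC10 and 0.16 without WNT replicate 2 for XRN2. In E7_CPI over E7 SHQ1 reached 0.178 without E7 replicate 1. All kept their direction, and all were called with the replicate term. The calls of SHQ1, EXOSC10 and XRN2 in WNT_CPI over WNT were also lost on leaving out any E7 or WNT_E7 library, outside that comparison. So were those of SHQ1 and XRN2 without either WNT_CPI_ACT library, that of SHQ1 without either E7_ACT library and that of EXOSC10 without E7_ACT replicate 2. The SHQ1 call in E7_CPI over E7 was also lost on leaving out WNT_ACT replicate 2 or any library of WNT_CPI, WNT, WNT_CPI_ACT, WNT_E7 or E7_ACT.

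Among 13 other small structured RNAs 6 were tested. RMRP, the RNA of the endonuclease RNase MRP, was called in E7_CPI over E7 at 3.14 (SE 0.94, adjusted p = 0.047, edgeR) and was at 0.31 (SE 0.85) in WNT_CPI over WNT. It had 65 counts in the fitted E7_CPI library and 25 in the reordered one, against 11 and 6 in E7, and it was also higher in replicate 2 over replicate 1 by 1.35 (SE 0.27, adjusted p = 0.00131, edgeR). Its call was lost with the reordered E7_CPI library in place of the fitted one (1.74, SE 0.99) and without E7 replicate 1 (adjusted p = 0.198, edgeR) or E7 replicate 2 (0.114). It was also lost without WNT_CPI replicate 2, WNT_ACT replicate 2 or any library of WNT, WNT_E7 or E7_ACT (up to 0.0635). No gene of these lists was called in the other 6 comparisons without the replicate term. With the term, the C/D core list had 1 higher in WNT_CPI over WNT (NOP56, 0.33, SE 0.08). The H/ACA core list had 2 lower in each of the 2 comparisons, GAR1 and DKC1, which encodes dyskerin, at -0.29 (SE 0.08) in WNT_CPI over WNT and -0.27 (SE 0.10) in E7_CPI over E7. The assembly list had 4 higher and 0 lower in WNT_CPI over WNT and 4 higher and 1 lower in E7_CPI over E7. The other small RNAs had 2 higher in WNT_CPI over WNT (RPPH1 and TERC) and 3 higher in E7_CPI over E7 (RMRP, RPPH1 and RN7SK). With this term 52.9% of all genes were called in WNT_CPI over WNT and 44.0% in E7_CPI over E7. At 48 h minus 24 h the term called 3 of the 28 proteins higher and 5 lower (28.6%, against 33.3% of all genes), with 1 C/D core protein among the lower. In WNT_ACT over E7_ACT 1 was lower, of the C/D core list (3.57%, against 2024 of 17793 genes). In WNT_CPI_ACT over WNT_ACT 1 was lower, of the assembly list (3.57%, against 3590 of 17793 genes).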

How the data were processed

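RNA was measured in 16 libraries. The authors deposited gene-level read counts, not normalized, in a table for each replicate number, per the file headers. The submitters' processing notes name featureCounts, DESeq2, Bowtie2, MACS2 and deepTools; for the RNA aligner, build, strand setting and treatment of multiple matches, the answer is not given in the sources used here. The combined ATAC peak list was not used here.

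The fit used edgeR 4.0.16 (R 4.3.3): filterByExpr by group, TMM scaling (factors 0.948 to 1.05 over 16 libraries), 8 groups in 1 model of 15 libraries, 7 residual degrees of freedom, 17793 genes tested. DESeq2 1.42.0 was an alternative. Levels are TMM-scaled counts per 1000000. The SE is the log2 fold change divided by the root of F.

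Replicate numbers were taken from the labels. Deviations from group means correlated between same-numbered samples at 0.39 to 0.742 (21 pairs of groups, E7_CPI left out), so they pair the samples. The replicate term lowered the common biological coefficient of variation to 0.122, against 0.29 without it. The script was tested on simulated data.

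The members and lists were chosen with earlier results of these data known. Named genes were the members, the called genes of each list (up to 4 per direction) and the 5 genes most like SNORD141A. Hosts are the shortest RefSeq gene that contains a row, without regard to strand, which the table does not give. Lengths and neighbours are from the same table.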

Additional observations from a re-analysis of the deposited data

Results flagged for a closer look

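The CPI-203 effect on SNORD3B-1 and SNORD3A differed between the days by a test of the difference itself. The difference of log2 fold changes (WNT_CPI_ACT over WNT_ACT, minus WNT_CPI over WNT) was -3.99 for SNORD3B-1 and -3.02 for SNORD3A, each with both 24 h CPI-203 libraries above both WNT libraries. Leaving out each library in turn gave -4.43 to -3.62 for SNORD3B-1 and -3.52 to -2.63 for SNORD3A, and both were called in all 15 of these fits.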

How the results depend on the processing

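Counts given as members called refer to SNORD141A and SNORD104. The replicate term called 1 of them in WNT_CPI over WNT and 1 at 48 h minus 24 h, as did the 16-library fit with that term and both E7_CPI libraries in replicate 2. Without the count minimum 6 rows were called in WNT_CPI over WNT, 5 in E7_CPI over E7, 2 at 48 h minus 24 h and 52 between replicates. For all small nucleolar rows, calls in E7_CPI over E7 were 10 with the replicate term, 13 in the 16-library paired fit, and 3 under the stricter filter, under DESeq2 and in a fit of only the groups compared. Leaving out a library gave 2 to 5, the lowest without E7 replicate 1 and 3 without E7 replicate 2 or WNT_CPI replicate 2. In WNT_CPI over WNT they were 19, 18 in the 16-library paired fit and 3 in a fit of only the groups compared. Leaving out a library gave 2 to 6, with 2 without WNT_CPI replicate 1 and 3 without either WNT library. The paired fits gave 7 and 9 at 48 h minus 24 h, 1 and 2 in WNT_ACT over E7_ACT and 1 in WNT_ACT over WNT_E7. The replicate difference was called in 22 rows under the stricter filter. The replicate block changed no other count of members. Of the class sums, SNORD members in E7_CPI had 9174 CPM with library totals as scaling, against 9586 CPM with TMM.

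Uncalled values changed sign in places, and the cause was not tested. SNORD141A in E7_CPI over E7 was -0.019 with the block, -0.014 with library totals and -0.0093 in the 16-library paired fit, and in WNT_CPI over WNT -0.0095 with library totals. Its difference with minus without Wnt3a was 0.063 with the block, 0.055 in the 16-library paired fit, 0.0048 with library totals and 0.0037 under the stricter filter. SNORD104 in E7_CPI over E7 was 0.59 with the block and 0.50 in the 16-library paired fit, and in WNT_ACT over WNT_E7 it was 0.0091 with RLE scaling and with DESeq2. Leaving out each library gave, for SNORD141A and then SNORD104, -0.15 to 0.064 and -0.52 to 0.58 in WNT over E7, -0.034 to 0.16 and -0.42 to 0.37 in E7_CPI over E7, and -0.043 to 0.13 and -0.26 to 1.38 in WNT_CPI over WNT. For with minus without Wnt3a these were -0.12 to 0.094 and -0.20 to 1.44, for WNT_ACT over E7_ACT -0.25 to 0.084 and -1.21 to 0.55, for WNT_ACT over WNT_E7 -0.16 to 0.044 and -0.91 to 0.76, and for WNT_CPI_ACT over WNT_ACT -0.21 to 0.011 and -1.01 to 0.40. The 16-library paired fit was chosen after seeing the data. Leaving out the fitted E7_CPI library gave no value for its comparisons. Over the single genes named, 966 alternative values kept direction and call, 113 lost the call, 4 gained it and 38 changed sign. With low counts on all rows but SNORD141A, depth limits what could be seen.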
